A study of Rattus norvegicus with 372 samples.

Results

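The 9 hepatocyte-secreted hormones and plasma proteins described here were given as a list of names, chosen with earlier results of these data known: Gdf15, Fgf21, Angptl4, Angptl6, Fetub, Ahsg, Igf1, Igfbp1 and Lect2. Of these 9 genes, 7 had a probe among the 20946 gene symbols of the whole transcriptome (WT) assay and 6 had one among the 2604 symbols of the surrogate (ST) assay, which gave 8 genes in all. Ahsg was read by the ST assay only, Angptl6 and Lect2 by the WT assay only, and Angptl4 is not analysed here. Each gene had 1 probe per assay, and Igfbp1 had a different probe in each. Probes differ in how well they are ligated and amplified, so levels were compared between treatments and not between genes.

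The cells were hepatocytes of male Wistar rats, kept between layers of collagen at 25000 cells per well and exposed for 24 h to 14 chemicals at 2 concentrations each, with 0.5% DMSO in every treated well. The medium held 0.5 µg/mL insulin, 100 nM dexamethasone and 10 ng/mL EGF in all groups, and the control groups were vehicle (medium with DMSO) and medium alone. TempO-Seq, in which pairs of detector oligos are ligated on their target RNA and the products are sequenced, was run on the same lysates as the WT and as the ST assay. Each of the 2 batches came from 1 rat, with libraries made and sequenced separately, so that rat and library run cannot be told apart, and gave 3 wells per treatment, with 3 wells of vehicle and of medium alone in batch 1 and 6 of each in batch 2.

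FGF21 is a liver hormone of fasting whose gene is switched on by the nuclear receptor PPARα when fatty acids are burned, and also by the transcription factor ATF4 when protein synthesis or the endoplasmic reticulum is under stress. GDF15 is a stress hormone that acts through the receptor GFRAL in the hindbrain to lower food intake; ATF4 and its partner CHOP, and p53 after DNA damage, are known to raise its gene. The other genes encode carriers and regulators in plasma: IGF-1 and its binding protein IGFBP1, which insulin keeps low, the fetuins AHSG and FETUB, the chemotactic protein LECT2 and the angiopoietin-like protein ANGPTL6.

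The promoters of the genes that the comparison turns on, Fgf21 and Gdf15, and of Igfbp1, the gene with the largest increase, are shown so that the elements known from these pathways can be looked for in them. Each is the 250 bases before an annotated start, from RefSeq on GRCr8, a build that differs from the rn6 used for the reads. Capitals mark matches, on either strand, to the ATF4 and C/EBP composite element TGATGNAA, to the PPAR element AGGTCA repeated after 1 base, to its looser form AGGNCA repeated after 1 base, or to the insulin response element TGTTTTG.
Fgf21, chr1:105221377-105221626, minus strand: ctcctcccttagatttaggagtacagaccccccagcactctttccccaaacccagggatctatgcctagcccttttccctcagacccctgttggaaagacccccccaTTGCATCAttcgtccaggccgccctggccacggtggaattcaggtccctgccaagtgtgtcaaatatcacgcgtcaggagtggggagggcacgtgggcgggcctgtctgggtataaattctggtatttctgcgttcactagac
Gdf15 start 1, chr16:18838186-18838435, plus strand: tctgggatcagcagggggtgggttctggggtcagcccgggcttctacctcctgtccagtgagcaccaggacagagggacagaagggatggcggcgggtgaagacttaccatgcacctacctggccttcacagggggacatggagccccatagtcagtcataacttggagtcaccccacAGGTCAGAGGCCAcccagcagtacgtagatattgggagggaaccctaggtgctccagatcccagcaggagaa
Gdf15 start 2, chr16:18839015-18839264, plus strand: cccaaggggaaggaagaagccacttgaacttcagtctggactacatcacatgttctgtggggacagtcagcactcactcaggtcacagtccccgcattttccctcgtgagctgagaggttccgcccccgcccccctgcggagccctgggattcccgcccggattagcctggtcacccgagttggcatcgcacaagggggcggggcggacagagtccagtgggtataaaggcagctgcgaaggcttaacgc
Igfbp1, chr14:86261027-86261276, plus strand: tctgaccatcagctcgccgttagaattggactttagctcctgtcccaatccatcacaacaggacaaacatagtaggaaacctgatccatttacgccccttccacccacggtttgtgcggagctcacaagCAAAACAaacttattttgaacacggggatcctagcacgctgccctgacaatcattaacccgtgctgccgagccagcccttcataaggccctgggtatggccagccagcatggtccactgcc

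The Fgf21 promoter held the composite element on its reverse strand, 143 bases before the start, as did 3.40% of all 33469 promoters with an entry. Start 1 of Gdf15 held the looser repeat 72 bases before it, found in 0.368% of promoters, and start 2 held no match. Igfbp1 held TGTTTTG on the reverse strand 121 bases before its start, and Igf1 held it 67 bases before, against 5.46% of all promoters. No exact AGGTCA repeat, present in 0.051% of promoters, was found for the 8 of the 9 genes with an entry. Angptl6, Ahsg and Lect2 had no match, and no entry for Fetub was used. A match or its lack in this window is a description of letters.

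Read depth ran from 2289425 to 8975207 counts per well in the WT assay and from 558190 to 2210264 in the ST assay. Summed over 8 hepatocyte genes such as Alb and Ttr, vehicle wells had 37054 to 44237 CPM (counts scaled by the total count of the well), against 29.7 to 49.9 CPM for 8 Kupffer cell and leukocyte genes, 20.2 to 130 for 7 stellate genes, 2.07 to 4.92 for 7 endothelial genes and 37.7 to 50.6 for 6 cholangiocyte genes. The biliary keratin Krt7 had no count in any vehicle well. In batch 1 the vehicle wells stood on 1 of the 2 plates; acetaminophen, chloramphenicol, indomethacin, ketoconazole, sulfasalazine and WY14643 were on the other, so plate and treatment cannot be told apart there. Fold changes (L2FC, on a log2 scale) come from edgeR (quasi-likelihood test, TMM scaling, batch in the model), and a gene is called at a Benjamini-Hochberg (BH) adjusted p under 0.05 over the 10191 genes tested. P-values rest on wells, and wells of a batch share 1 rat.

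Over 28 treatments and 7 genes of the WT assay there were 196 comparisons with vehicle, of which 83 were called, 35 higher and 48 lower; over all genes 30.2% were called. The higher concentrations gave 73 calls of 98, where 50.9% of all genes and treatments were called, and the lower ones gave 10 of 98, where 9.41% were. The number of chemicals that moved a gene at the higher concentration ran from 8 of 14 for Igf1 to 12 of 14 for Fgf21 and Lect2, and Ahsg was called lower by all 14 in the ST assay, where 57.7% of genes were called at the higher concentrations and 11.9% at the lower. Directions differed by gene. Gdf15 and Igfbp1 rose more often than they fell, with 8 higher and 1 lower, and 8 higher and 2 lower, at the higher concentrations. Fetub, by contrast, fell in 11 and rose in none of these, Angptl6 fell in 10 and rose in 1, Igf1 fell in 7 and rose in 1, Fgf21 fell in 7 and rose in 5, and Lect2 was split 6 to 6.

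**Figure D1:**
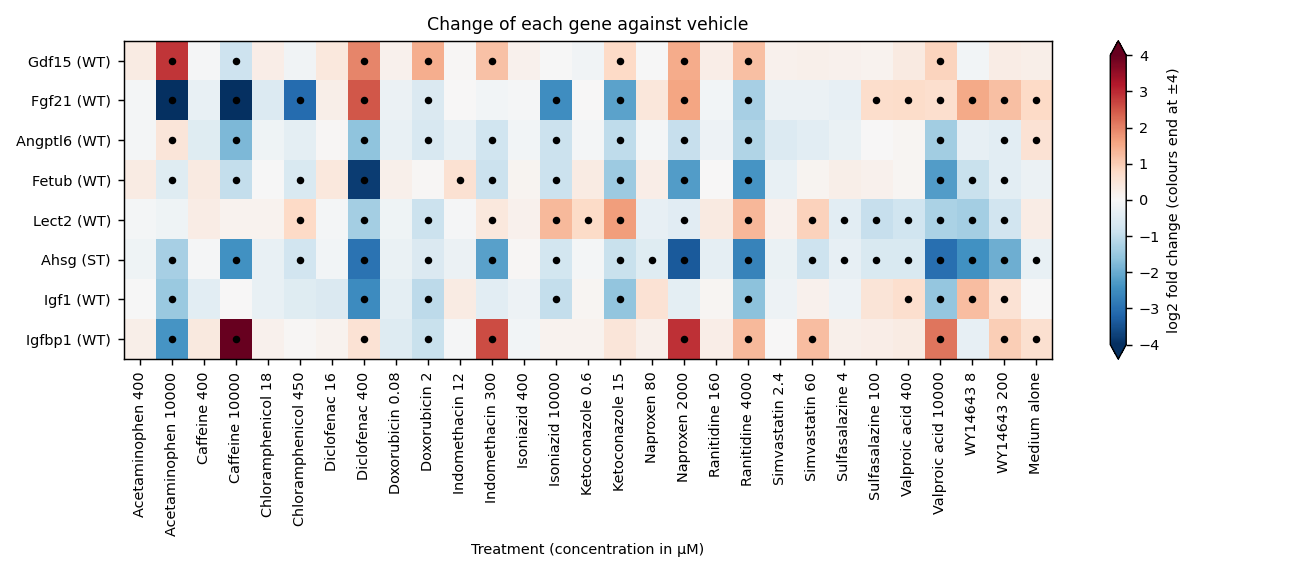
Colour gives the L2FC against vehicle of each gene (rows) in each treatment (columns, concentration in µM), from the WT assay and, for Ahsg, the ST assay, and colours end at ±4. Fgf21 reached -6.58 under acetaminophen and 2.49 under diclofenac, whereas the Ahsg row is lower in all 14 higher concentrations.

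Fgf21 was the gene with the widest range of L2FC. In 9 vehicle wells it had a lowest level of 28.2, a median of 40.7 and a highest of 60.3 CPM. Diclofenac at 400 µM, an inhibitor of cyclooxygenase, gave 212, 263 and 325 CPM (lowest, median and highest of 6 wells). Naproxen at 2000 µM, of the same class, gave 111, 128 and 146 CPM, and the PPARα agonist WY14643 gave 65.7, 93.4 and 146 CPM at 8 µM and 69.4, 81.3 and 110 CPM at 200 µM. All wells of these 4 treatments were above the vehicle wells of their batch. The L2FC was 2.49 ± 0.20 (SE) for diclofenac, 1.59 ± 0.20 for naproxen, 1.50 ± 0.20 for WY14643 at 8 µM and 1.20 ± 0.20 at 200 µM (edgeR quasi-likelihood test, BH-adjusted p = 1.57e-24, 2.37e-12, 3.34e-11 and 6.99e-08), in treatments with 71.7%, 53.8%, 56.2% and 51.3% of all genes called. With WY14643 the rise at 8 µM was 1.89 in batch 1 and 1.07 in batch 2.

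Fgf21 also rose less strongly in 3 treatments, of which 2 differed between the batches. Valproic acid at 400 µM gave 54.1, 69.9 and 97.0 CPM, with an L2FC of 0.74 ± 0.20 (adjusted p = 0.00213; 29.1% of genes called) and all wells above vehicle in both batches. At 10000 µM it gave 44.2 to 57.0 CPM in batch 1, within the range of vehicle, and 96.0 to 134 CPM in batch 2, above it, for an L2FC of 0.66 ± 0.20 (adjusted p = 0.0023, edgeR; 66.7% of genes called). Sulfasalazine at 100 µM did the reverse, with 87.1 to 111 CPM in batch 1 and 33.1 to 37.9 CPM in batch 2, for 0.69 ± 0.20 (adjusted p = 0.00327, edgeR; 41.0% of genes called). Within batches, the L2FC was -0.10 and 1.19 for valproic acid at 10000 µM and 1.25 and -0.09 for sulfasalazine, differences that were called by an interaction test (adjusted p = 0.000451 and 0.00291, edgeR). None of these 3 rises stayed called when the wells of a rat were added to 1 sample (adjusted p = 0.244, 0.138 and 0.221 by the same edgeR test), and that of valproic acid at 10000 µM was lost without replicate 4 (0.41). In the ST assay all 12 calls of Fgf21 at the higher concentrations had the same sign in both batches. Valproic acid at 10000 µM had 218 to 373 CPM there in batch 1 against 209 to 279 in vehicle. Sulfasalazine at 100 µM had 211 to 291 CPM in batch 2 of that assay against 160 to 279 in vehicle.

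Fgf21 fell in 7 treatments, in part to near the floor of detection. Acetaminophen at 10000 µM gave 0 to 6 reads per well, 13 in all over 6 wells, or 0, 0.379 and 0.824 CPM. Caffeine at 10000 µM gave 0.508, 1.24 and 3.46 CPM, chloramphenicol at 450 µM 1.93, 5.12 and 13.7 CPM, and isoniazid at 10000 µM 3.93, 8.11 and 11 CPM. No well of these 4 reached the lowest vehicle well. The L2FC was -6.58 ± 0.40, -4.64 ± 0.31, -3.08 ± 0.26 and -2.47 ± 0.24 (adjusted p = 5.85e-35, 6.32e-31, 2.99e-21 and 5.96e-17, edgeR), with 78.9%, 66.2%, 33.3% and 34.7% of genes called. Ketoconazole at 15 µM followed with -2.14 ± 0.24 and ranitidine at 4000 µM with -1.34 ± 0.22, in treatments with 51.3% and 66.2% of genes called, and their wells were also below vehicle in both batches. The size of the fall differed between the batches for 3 of these, by an interaction test (edgeR): caffeine gave -3.96 in batch 1 and -5.48 in batch 2 (adjusted p = 0.0423), chloramphenicol -2.33 and -4.27 (0.000558) and ketoconazole -2.94 and -1.63 (0.00707). The 8 hepatocyte genes named above were also lower in sum than in any vehicle well (37054 to 44237 CPM) in all 7 treatments. They had 23243 to 36369 CPM in acetaminophen, 16263 to 22741 in caffeine, 22656 to 30741 in chloramphenicol and 25230 to 30513 in isoniazid. Ketoconazole had 19745 to 23322, ranitidine 11880 to 17641 and doxorubicin at 2 µM 25173 to 30496 CPM. Their sum was also below vehicle where Fgf21 rose in diclofenac (6945 to 9401 CPM) and naproxen (19699 to 20869 CPM). The same held for valproic acid at 10000 µM (15659 to 22135) and WY14643 at 200 µM (30204 to 35169). It did not hold for WY14643 at 8 µM, valproic acid at 400 µM and sulfasalazine at 100 µM, which also raised Fgf21. The part of these genes in the Fgf21 results was not tested. Doxorubicin at 2 µM, a topoisomerase poison, had 25.6, 29.3 and 31.6 CPM and -0.58 ± 0.21 (adjusted p = 0.0381, edgeR; 19.4% of genes called). Its wells overlapped those of vehicle in batch 2, and the call was lost without any one of replicates 2, 4, 5 and 6 (adjusted p = 0.0533 to 0.112, edgeR). It was also lost with the wells of a rat added together (0.549), without the batch term (0.137), without a filter on low counts (0.0512) and against vehicle of the same plate in batch 2 (0.206, edgeR).

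Gdf15 behaved as a gene with one main direction. Vehicle wells had 52.6, 72.6 and 107 CPM, and acetaminophen at 10000 µM gave 303, 435 and 554 CPM. Diclofenac gave 253, 324 and 449, naproxen 167, 224 and 287, and doxorubicin 172, 217 and 272 CPM. All wells of these 4 were above vehicle in both batches. The L2FC was 2.86 ± 0.15, 1.95 ± 0.14, 1.50 ± 0.14 and 1.45 ± 0.14 (adjusted p = 3.86e-43, 2.37e-27, 2.10e-18 and 1.54e-16, edgeR), and for acetaminophen this was 7.24-fold. Ranitidine (1.19 ± 0.14), indomethacin at 300 µM (1.16 ± 0.14; 54.7% of genes called), valproic acid at 10000 µM (0.88 ± 0.14) and ketoconazole (0.81 ± 0.14) followed, and for ketoconazole the batches gave 0.13 and 1.31. In indomethacin the hepatocyte genes had a sum of 22917 to 28683 CPM against 37054 to 44237 in vehicle. Kupffer cell and leukocyte genes had 12.8 to 22.9 against 29.7 to 49.9 CPM, and endothelial genes 0.32 to 1.61 against 2.07 to 4.92. Their part in the indomethacin results here and below was not tested. Caffeine was the 1 treatment that lowered Gdf15, with 33.9, 39.3 and 52.7 CPM, all below vehicle of the same batch, and an L2FC of -0.84 ± 0.15 (adjusted p = 6.26e-07, edgeR). In the order of group medians, the ranges of neighbours overlapped in 28 of 29 pairs for Gdf15, all but WY14643 at 8 µM and caffeine at 10000 µM. For Fgf21 they overlapped in 27 of 29, all but diclofenac at 400 µM above naproxen at 2000 µM and chloramphenicol at 18 µM above ranitidine at 4000 µM.

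**Figure D2:**
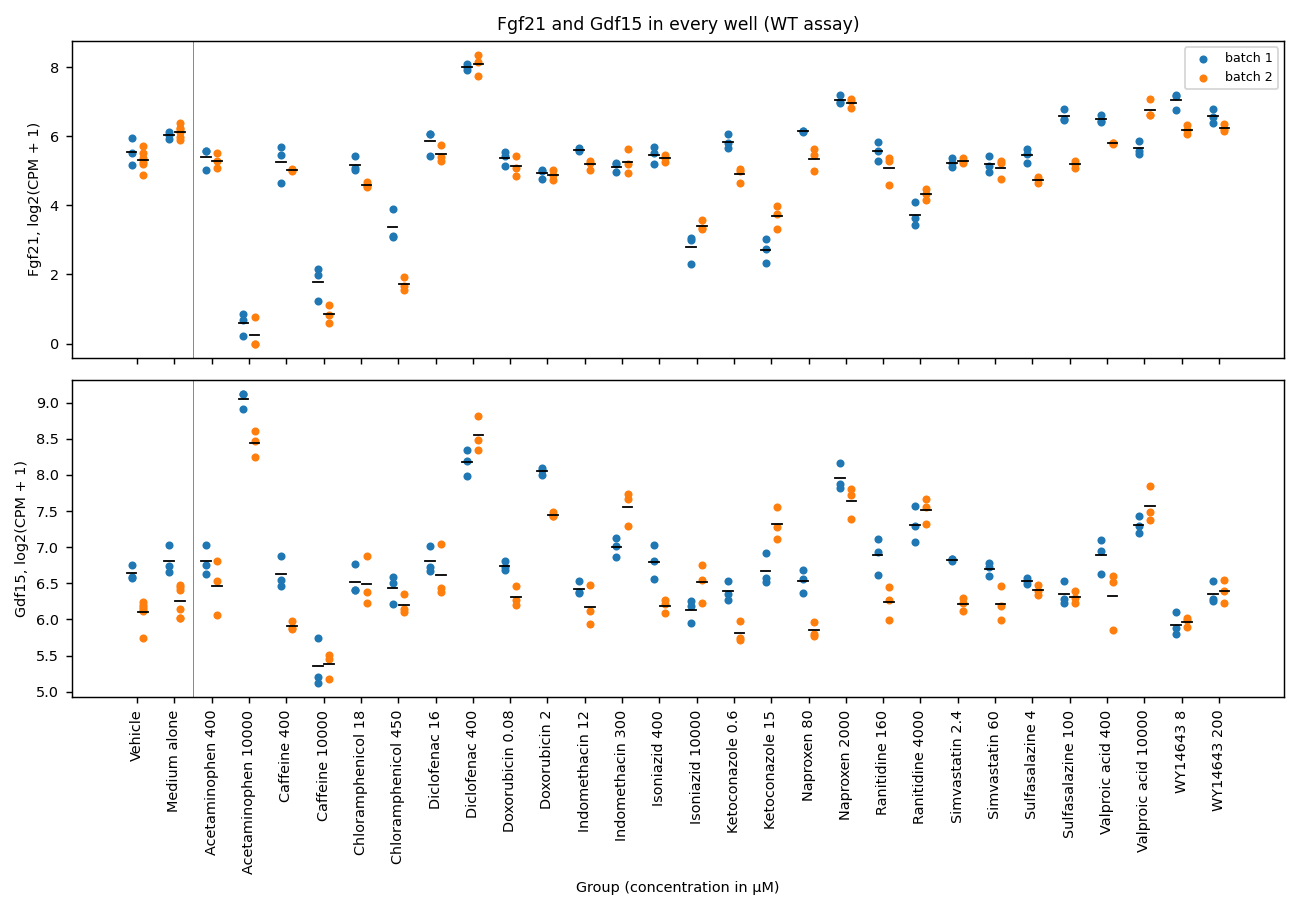
Each point is the level of Fgf21 or Gdf15 in 1 well (log2 of CPM + 1, WT assay) by treatment, with the 2 batches in different colours and bars at the batch means. Diclofenac wells lie at 212 to 325 CPM for Fgf21, and acetaminophen wells at 0 to 0.824 CPM for Fgf21 but 303 to 554 CPM for Gdf15.

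Set side by side by their calls in the WT assay, both hormones rose in 3 of the 28 treatments (diclofenac, naproxen and valproic acid at their higher concentrations). Fgf21 rose with no call of Gdf15 in 4: WY14643 at both concentrations, valproic acid at 400 µM and sulfasalazine at 100 µM. For WY14643 at 200 µM this depended on the assay, since Gdf15 had an L2FC of 0.28 ± 0.15 in the WT assay (adjusted p = 0.0961, edgeR) and 0.38 ± 0.17, called higher, in the ST assay (0.043). Per rat, the rises of Fgf21 in valproic acid at 400 and 10000 µM and in sulfasalazine were not called, as given above. Gdf15 rose while Fgf21 fell in 4, namely acetaminophen, doxorubicin, ketoconazole and ranitidine, of which doxorubicin rests on a fall of Fgf21 that was lost under the settings given above, and Gdf15 rose without a call of Fgf21 in 1, indomethacin, where Fgf21 had an L2FC of -0.10 ± 0.21. Caffeine lowered both, chloramphenicol and isoniazid lowered Fgf21 with no call of Gdf15, and 13 treatments called neither. Among the means of 28 treatments in 2 batches, Pearson's r of Fgf21 with Gdf15 was 0.05 over 56 points, a description of points that share rats and plates.

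**Figure D3:**
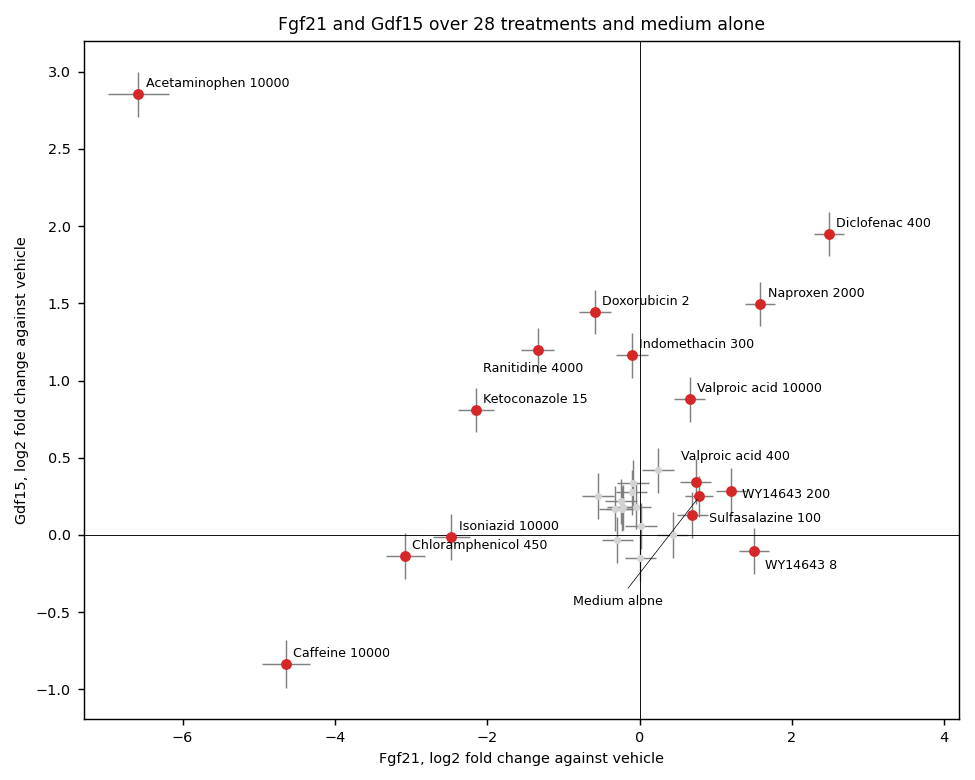
The L2FC of Gdf15 (vertical axis) is plotted against that of Fgf21 (horizontal axis) for 28 treatments and medium alone in the WT assay, with bars of 1 SE and red points where either gene was called. Acetaminophen lies at -6.58 for Fgf21 and 2.86 for Gdf15, diclofenac at 2.49 and 1.95, and WY14643 at 8 µM at 1.50 and -0.10.

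A PPARα agonist was then set against 3 chemicals that raised Gdf15, without the shared vehicle wells. In WY14643 at 8 µM, Gdf15 had 54.8, 60.7 and 67.6 CPM, below the vehicle wells of batch 1 and within those of batch 2, with an L2FC of -0.10 ± 0.15 against vehicle that was not called (adjusted p = 0.577, edgeR). Against acetaminophen, the L2FC of Fgf21 was higher in WY14643 by 8.08 ± 0.40 and Gdf15 was lower (L2FC -2.96 ± 0.17), with 75.6% of genes called. Against doxorubicin, Fgf21 was higher by 2.08 ± 0.23 and Gdf15 lower (-1.55 ± 0.16), with 61.6% of genes called. Against diclofenac both were lower in WY14643, with an L2FC of -0.99 ± 0.22 for Fgf21 and -2.05 ± 0.17 for Gdf15 and 72.6% of genes called.

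The balance of both hormones in a well, log2 of (Fgf21 CPM + 1) over (Gdf15 CPM + 1), was then described for the same 3 pairs, which were chosen with earlier results known. It was higher in WY14643 than in acetaminophen by 8.997 (9.58 in batch 1 and 8.41 in batch 2), than in doxorubicin by 3.52 (4.25 and 2.80) and than in diclofenac by 0.99 (1.29 and 0.69). In each batch all 3 wells of WY14643 lay above those of the other chemical. With so few reads of Fgf21 in acetaminophen, the first difference depended on what was added to each level, and was 9.72 with 0.5 CPM and 6.97 with 5 CPM. Diclofenac and doxorubicin stood on another plate than WY14643 in both batches, so plate and chemical cannot be told apart in those pairs. In batch 2, where vehicle stood on both plates, it had 28.2 to 40.7 CPM of Fgf21 on 1 plate and 37.2 to 51.8 CPM on the other, and 69.9 to 74.9 and 52.6 to 71.3 CPM of Gdf15.

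Genes that belong to the pathways named above were followed in the same wells, from lists chosen with earlier results of these data known. The 20 tested PPARα target genes, enzymes of fatty acid oxidation and their like, were all called higher in WY14643 at 8 µM (56.2% of all genes called), with a median L2FC of 4.87, where the median over all genes was -0.02. The ω-hydroxylase Cyp4a1 rose by 10.60 ± 0.40 and the peroxisomal bifunctional enzyme Ehhadh by 10.56 ± 0.28, and the acyl-CoA thioesterase Acot1, almost without reads in vehicle, was at least 1390-fold higher. All 20 were also called higher in naproxen at 2000 µM (median 4.19; 53.8% of genes called), valproic acid at 400 µM (2.75; 29.1%), sulfasalazine at 100 µM (2.64; 41.0%), indomethacin at 300 µM (2.44; 54.7%) and simvastatin at 60 µM (1.56; 23.9%). Fgf21 was called higher in the first 3 of these 5 and had no call in the last 2. In caffeine 17 of the 20 were higher and 1 lower (median 2.01; 66.2% of genes called), in the wells where Fgf21 had an L2FC of -4.64. In diclofenac, with the largest rise of Fgf21, 10 were higher and 5 lower, with a median of 0.50, and the share called was near the 71.7% of all genes.

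Of 19 tested genes of the ATF4 and integrated stress response list, 13 were higher and 4 lower in diclofenac (71.7% of all genes called), with a median L2FC of 1.20. Ddit3, which encodes CHOP, rose by 6.30 ± 0.18 there, the eIF2α phosphatase subunit Ppp1r15a by 3.21 ± 0.11 and the secreted glycoprotein Stc2 by 2.90 ± 0.29, and 8 of 10 chaperone genes of the endoplasmic reticulum were higher, among them Hspa5 (BiP) by 2.69 ± 0.32. In acetaminophen 6 of the 19 were higher and 10 lower (median -0.41), near the 78.9% of all genes called; the serine synthesis enzymes Phgdh and Psat1 had L2FC of -4.67 ± 0.28 and -3.64 ± 0.16, and the folate enzyme Aldh1l2 -5.14 ± 0.23. Chloramphenicol and isoniazid, in which Fgf21 fell and Gdf15 was not called, had 0 higher and 16 lower (33.3% of genes called), and 3 higher and 12 lower (34.7%). In doxorubicin none of the 19 was called higher and 4 were lower, a share near the 19.4% of all genes called. WY14643 at 8 µM had 7 higher and 6 lower (56.2% of genes called), with Stc2 at 1.96 ± 0.30, the lipoprotein receptor Vldlr at 1.67 ± 0.13 and Atf3, a repressor induced by stress, at -1.64 ± 0.23.

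Of 11 tested p53 targets, 5 were higher and none lower in doxorubicin (19.4% of all genes called), with the cell cycle inhibitor Cdkn1a at 1.45 ± 0.17, the ubiquitin ligase Mdm2 at 1.28 ± 0.13 and Phlda3 at 0.66 ± 0.09. In those wells the 8 Kupffer cell and leukocyte genes had a sum of 4.51 to 8.92 CPM against 29.7 to 49.9 in vehicle, the 7 stellate genes 2.16 to 13.9 against 20.2 to 130 CPM with Col1a1 and Des at 0, and the 7 endothelial genes 0.15 to 0.97 against 2.07 to 4.92 CPM with Kdr and Vwf at 0. The part of such cells in the doxorubicin values was not tested. Acetaminophen had 7 higher and 3 lower (78.9% of genes called), with Cdkn1a at 2.97 ± 0.17 and the cyclin Ccng1 at 2.88 ± 0.29, and the NRF2 targets Txnrd1, Nqo1 and Hmox1 rose by 3.31 ± 0.25, 2.78 ± 0.15 and 2.51 ± 0.26, among 4 higher and 3 lower of 9 (median 0.25), where 78.9% of all genes were called. In WY14643 at 8 µM none of the p53 targets was higher and 5 were lower (56.2% of genes called). Of 7 tested genes of FGF21 receptors and regulators, 1 was higher and 4 were lower in acetaminophen (median L2FC -0.87; 78.9% of all genes called), 4 were higher and 2 lower in WY14643 at 8 µM (0.80; 56.2%), and all 7 were lower in diclofenac (-1.81; 71.7%). In acetaminophen Ppara had an L2FC of -3.26 ± 0.27 and Creb3l3, a liver transcription factor that acts with PPARα on Fgf21, -3.07 ± 0.22, while in WY14643 Creb3l3 rose by 1.75 ± 0.15, and in diclofenac the receptor Fgfr4 had -3.37 ± 0.17.

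**Figure D4:**
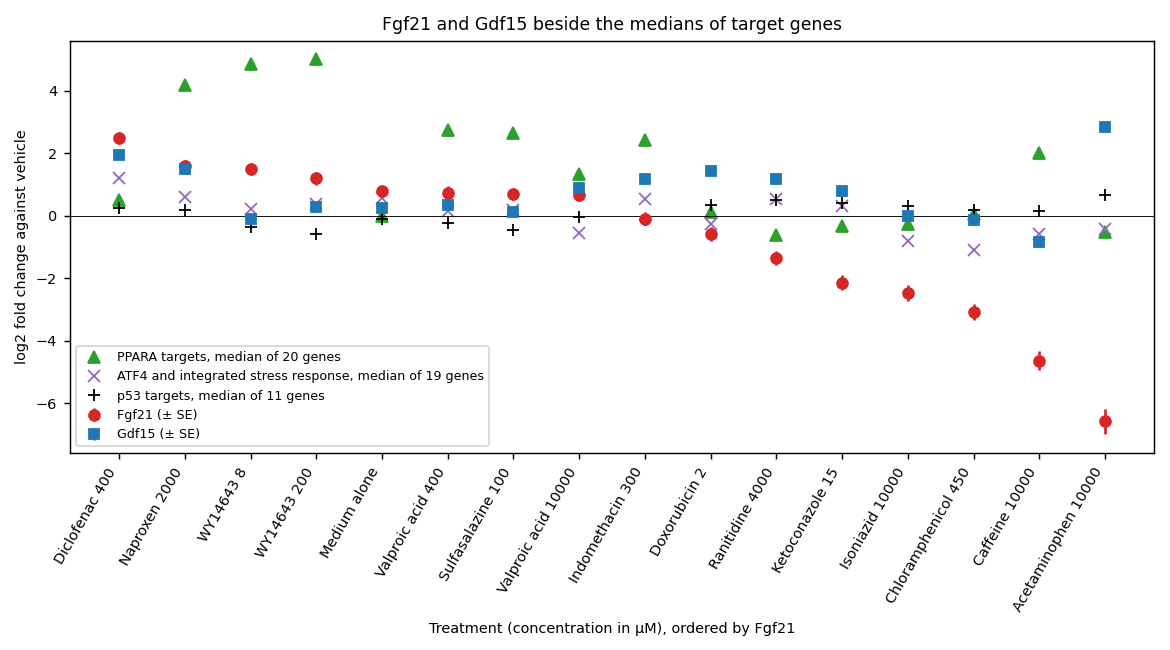
Points give the median L2FC of the PPARα, ATF4 and p53 lists, and the L2FC ± SE of Fgf21 and Gdf15, for medium alone and the treatments that called either gene, ordered by Fgf21 (WT assay). The PPARα median is 4.87 in WY14643 at 8 µM and 0.50 in diclofenac, where the ATF4 median is 1.20.

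By likeness of pattern, the 5 genes with the highest Pearson r to Gdf15 over 56 treatment means were Gadd45a (0.89), Atf3, Eaf1, Abhd17b and Slc19a2 (0.77 to 0.78), of which Atf3 is on the ATF4 list. For Fgf21 they were Otub2 (0.88), Fut1, rgd1565033, Chac1 and Chek1 (0.80 to 0.84), of which Chac1, a glutathione-degrading enzyme, is on that list too. The points share rats, plates and depth, and no test is attached.

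Igfbp1 gave the largest rise among the 8 genes. Vehicle wells had 736 to 833 CPM in batch 1 and 1218 to 1819 CPM in batch 2, and caffeine at 10000 µM, a phosphodiesterase inhibitor and adenosine receptor antagonist, gave 16873, 21116 and 30121 CPM. All caffeine wells were above all vehicle wells, and the change was 21.1-fold, with an SE of 0.24 on the log2 scale (adjusted p = 6.65e-40, edgeR). The L2FC was 4.99 in batch 1 and 3.96 in batch 2, a difference called by the interaction test (adjusted p = 0.0451, edgeR). Naproxen (2.93), indomethacin (2.60), valproic acid at 10000 µM (2.15), ranitidine (1.30), simvastatin (1.24), WY14643 at 200 µM (0.99) and diclofenac (0.58) were also called higher. For ranitidine the batches gave 1.98 and 0.72, a difference called by the interaction test (adjusted p = 0.00771, edgeR), and against vehicle of the same plate in batch 2 it was not called (0.55, adjusted p = 0.082). For diclofenac the batches gave 1.37 and -0.15, and the call was lost without any one of replicates 1, 2 and 3 (0.37 to 0.46) and with the wells of a rat added together (adjusted p = 0.126, edgeR). Acetaminophen gave 90.1 to 96.5 CPM in batch 1 and 245 to 316 CPM in batch 2, below every vehicle well, with an L2FC of -2.37 ± 0.25, and doxorubicin gave -0.90 ± 0.23 (-0.21 in batch 1 and -1.52 in batch 2; -0.66 and not called without replicate 4, nor per rat). WY14643 at 8 µM had 494, 820 and 1019 CPM, below vehicle in both batches, but after scaling its L2FC of -0.33 ± 0.23 was not called (adjusted p = 0.206, edgeR).

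The ligand that IGFBP1 binds, Igf1, was detected at 1.64, 3.00 and 5.02 CPM in vehicle, 9 to 34 reads per well, so that its values carry a large counting error. It rose in WY14643 at 8 µM to 3.55, 5.79 and 8.01 CPM, above vehicle in batch 1 and overlapping it in batch 2, with an L2FC of 1.23 ± 0.23 (adjusted p = 1.31e-06, edgeR). Valproic acid at 400 µM (0.67 ± 0.23) and WY14643 at 200 µM (0.57 ± 0.24) were called higher as well, the first lost without replicate 4 (0.45) and the second without any one of replicates 1, 2, 4 and 5 (0.47 to 0.56). Diclofenac gave 0 or 1 read per well in batch 1 and 6 to 8 in batch 2, with an L2FC of -2.53 ± 0.33 (-4.83 in batch 1 and -1.95 in batch 2, interaction adjusted p = 0.0354, edgeR). Ranitidine, ketoconazole, valproic acid at 10000 µM, acetaminophen, doxorubicin and isoniazid lowered it, with L2FC between -1.65 and -0.97, of which isoniazid was not called without replicate 6 (-0.65). With the wells of a rat added together, Igf1 was not called in valproic acid at 400 µM, WY14643 at 200 µM, doxorubicin or isoniazid (adjusted p = 0.198, 0.168, 0.147 and 0.083, edgeR). Among 14 other tested genes of growth hormone and IGF signalling, 3 were higher and 7 lower in WY14643 at 8 µM (56.2% of genes called), with the insulin receptor substrate Irs1 at -2.24 ± 0.30 and the transcription factor Foxo1 at 1.18 ± 0.12; the other substrate, Irs2, rose by 3.50 ± 0.26 in acetaminophen and 3.16 ± 0.25 in diclofenac.

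The fetuins fell in most of the higher concentrations. Ahsg, which encodes fetuin-A, a carrier of calcium phosphate and inhibitor of the insulin receptor, had 16589, 19463 and 22696 CPM in vehicle wells of the ST assay. Naproxen at 2000 µM gave 1404, 1855 and 2126 CPM, WY14643 at 8 µM 1696, 2652 and 2942, and diclofenac 2169, 3021 and 4464 CPM. All wells of these treatments were below all vehicle wells. The L2FC was -3.37 ± 0.11, -2.41 ± 0.10 and -2.95 ± 0.11, and -3.01 ± 0.11 in valproic acid at 10000 µM (adjusted p = 3.78e-67, 1.07e-51, 8.47e-61 and 2.81e-61, edgeR). Of the lower concentrations, WY14643 at 8 µM, valproic acid at 400 µM, naproxen at 80 µM and sulfasalazine at 4 µM were called lower, and the other 10 were not. With the wells of a rat added together, naproxen at 80 µM and sulfasalazine at 4 µM were no longer called (adjusted p = 0.164 and 0.795, edgeR).

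Fetub, which encodes a related protease inhibitor, had 2287, 2777 and 3236 CPM in vehicle. Diclofenac gave 179, 199 and 304 CPM, with an L2FC of -3.79 ± 0.14 (adjusted p = 8.10e-60, edgeR), and ranitidine, valproic acid at 10000 µM and naproxen had -2.36, -2.24 and -2.23. For naproxen the batches gave -2.75 and -1.83, a difference called by the interaction test (adjusted p = 0.000643, edgeR). WY14643 at 8 µM had 1036, 1273 and 1358 CPM and -0.88 ± 0.12. All wells of these treatments were below vehicle in both batches. In diclofenac the 8 hepatocyte marker genes also had a sum of 6945 to 9401 CPM against 37054 to 44237 in vehicle, with 7 of 8 called lower (71.7% of all genes called), as they were in ranitidine (66.2%) and valproic acid at 10000 µM (66.7%), and 6 of 8 in naproxen (53.8%); in WY14643 at 8 µM their sum was 37286 to 39325 CPM, with 2 higher and 1 lower (56.2%). In these bulk lysates, fewer cells of a type and less RNA per cell cannot be told apart, and the part of the marker change in these results was not tested. The patterns most like that of Fetub were those of the plasma protein genes Apoa1, Serpind1 and Serpina11 (r = 0.93 for each, 56 points).

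**Figure D5:**
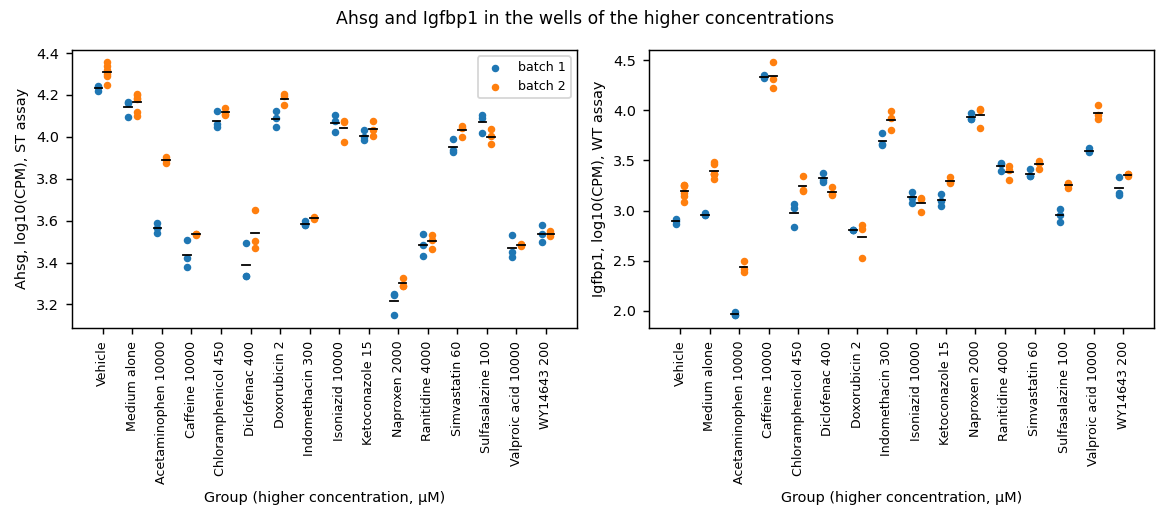
Each point is 1 well: log10 of the CPM of Ahsg (ST assay) and of Igfbp1 (WT assay) in vehicle, medium alone and the higher concentrations, coloured by batch with bars at batch means. Ahsg lies at 16589 to 22696 CPM in vehicle and 1404 to 2126 in naproxen, and Igfbp1 at 16873 to 30121 CPM in caffeine against 736 to 1819 in vehicle.

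Lect2, which encodes a chemotactic hepatokine, had 260 to 321 CPM in vehicle of batch 1 and 455 to 555 CPM in batch 2. Ketoconazole at 15 µM gave 1107, 1199 and 1332 CPM, isoniazid 836, 1017 and 1210, and ranitidine 832, 913 and 1017 CPM, all above vehicle. The L2FC was 1.67 ± 0.14, 1.30 and 1.32. By the interaction test the batches differed for ketoconazole, with 2.09 and 1.36 (adjusted p = 0.00157, edgeR), and for ranitidine, with 1.84 and 0.87 (1.76e-06). Ketoconazole at 0.6 µM gave 0.78 ± 0.14 (adjusted p = 0.000206, edgeR; 1.62% of genes called). That call was lost without the batch term (0.0898) and with the wells of a rat added together (0.906, edgeR). WY14643 at 8 µM had the lowest median, with 108, 123 and 158 CPM, below vehicle in both batches, and an L2FC of -1.35 ± 0.15. Diclofenac (-1.37), valproic acid at 10000 µM (-1.27) and sulfasalazine at 100 µM (-0.93) lowered it too, as did doxorubicin, valproic acid at 400 µM, WY14643 at 200 µM and naproxen at 2000 µM, of which doxorubicin, valproic acid at 400 µM and naproxen were not called with the wells of a rat added together (adjusted p = 0.108, 0.0745 and 0.253, edgeR). The batches also differed for valproic acid at 10000 µM (-0.87 and -1.55) and naproxen (-0.12 and -0.68), with interaction adjusted p = 0.00174 and 0.0421 (edgeR). Sulfasalazine at 4 µM was called lower too (adjusted p = 0.0332, edgeR; 17.4% of genes called), which did not hold without any one of replicates 1, 2, 5 and 6 (-0.36 to -0.45). Indomethacin at 300 µM was called higher at 0.43, but its batches went opposite ways (1.14 and -0.35) and it was not called without any one of replicates 1, 2 and 3 (0.25 to 0.32). Neither of these was called per rat (adjusted p = 0.573 and 0.179, edgeR). Indomethacin at 12 µM gave 1 call among the 7 genes, Fetub at 0.62 ± 0.12 (5.87% of genes called), which was lost per rat (adjusted p = 0.429, edgeR).

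Angptl6 was low, with 6.23, 8.12 and 8.92 CPM in vehicle. Caffeine gave 1.40, 1.90 and 3.54 CPM and diclofenac 2.10, 2.60 and 4.64 CPM, all below vehicle, with L2FC of -1.79 ± 0.20 and -1.61 ± 0.19. In caffeine the hepatocyte genes had a sum of 16263 to 22741 CPM against 37054 to 44237 in vehicle, with 3 of 8 higher and 4 lower (66.2% of genes called), and the Kupffer cell and leukocyte genes 6.16 to 14.9 against 29.7 to 49.9 CPM, with Ptprc at 0; their part in the caffeine results here and above was not tested. The 1 rise, acetaminophen at 0.47 ± 0.17, came from wells (5.50 to 12.5 CPM) that overlapped vehicle in both batches. It was 0.06 and not called when no scaling factor was used, a setting in which the median L2FC of all genes there was -0.43. It was also lost without replicate 2 (0.35), as was the fall in WY14643 at 200 µM (-0.42 ± 0.18) without any one of replicates 4, 5 and 6 (-0.34 to -0.40) and per rat (adjusted p = 0.234, edgeR). Of 5 other tested angiopoietin-like and lipase genes, Angptl8 rose by 1.86 ± 0.15 in WY14643 at 8 µM.

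Concentration changed some of these responses. Between valproic acid at 400 and 10000 µM, 6 of the 7 genes were called (65.3% of all genes), and Fgf21 was not, at 0.08 ± 0.22 higher in 400 µM; the batches gave 1.07 and -0.67. Gdf15 was lower at 400 µM (-0.53 ± 0.16), a call lost without replicate 4 (-0.30) and per rat (adjusted p = 0.0673, edgeR), and Fetub and Igf1 were higher there by 2.30 ± 0.13 and 2.20 ± 0.29. Between WY14643 at 200 and 8 µM, 3 of the 7 were called, all higher at 200 µM, with 5.74% of all genes called: Igfbp1 by 1.32 ± 0.25, Lect2 by 0.57 ± 0.15 (0.54 and not called without replicate 4) and Fetub by 0.47 ± 0.13. None of the 3 stayed called with the wells of a rat added together (adjusted p = 0.14, 0.445 and 0.389, edgeR). Fgf21 differed by -0.30 ± 0.22, which was not called.

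In 9 of the 14 lower concentrations, none of 63 comparisons of the WT assay was called by edgeR or by DESeq2, and 17 had an unadjusted p under 0.05. The shares of all genes called there were 1.38% for acetaminophen at 400 µM, 0.118% for caffeine at 400 µM, 0.0883% for chloramphenicol at 18 µM, 0.137% for diclofenac at 16 µM, 1.32% for doxorubicin at 0.08 µM, 0.0196% for isoniazid at 400 µM, 16.0% for naproxen at 80 µM, 0.0589% for ranitidine at 160 µM and 2.40% for simvastatin at 2.4 µM. In the ST assay, naproxen at 80 µM was called higher for Igfbp1 (0.54 ± 0.19, adjusted p = 0.0226, edgeR), which was lost per rat (0.435), where the WT probe gave 0.19 ± 0.22. Gdf15 was called in none of the 14 lower concentrations (3 with an unadjusted p under 0.05, 0 by DESeq2), and Fgf21 in 2 of them.

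In the WT assay, medium alone differed from vehicle in 3 of the 7 genes, with 12.6% of all genes called. Fgf21 had 58.0, 68.4 and 82.1 CPM without DMSO, with an L2FC of 0.79 ± 0.18 (adjusted p = 0.000894, edgeR), above vehicle in batch 2 and overlapping it in batch 1. Angptl6 (0.59 ± 0.15) and Igfbp1 (0.63 ± 0.20, lost without replicate 5 at 0.60) were higher too, and 11 of the 19 ATF4 genes were higher with none lower. None of the 3 was called with the wells of a rat added together, or in batch 1 alone. In the ST assay, with 21.6% of genes called, all 4 genes tested by both assays were called, so Gdf15 and Fetub as well. In batch 1 of that assay, Gdf15 had 816 to 1025 CPM in medium alone against 657 to 764 in vehicle. Fetub there had 2704 to 3146 against 3572 to 3897 CPM. In batch 2 both genes overlapped vehicle. Ahsg was lower in medium alone in the ST assay (-0.31 ± 0.08), which was lost per rat (adjusted p = 0.446, edgeR).

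The ST assay, run on lysate of the same wells and so a check of the measurement only, called the same direction in all 46 of the comparisons that the WT assay had called for Gdf15, Fgf21, Fetub and Igfbp1. The ST assay made 6 further calls for these genes, 52 in all. For Igfbp1, read by another probe, all 10 calls were among 14 of the ST assay, and for Gdf15 the ST assay called 11 treatments higher or lower against 9, with WY14643 at 200 µM and simvastatin at 60 µM (0.43 ± 0.17) added. Acetaminophen gave 8.66-fold for Gdf15 in the ST assay against 7.24-fold in the WT assay, and diclofenac gave 7.02-fold and 5.60-fold for Fgf21.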

How the data were processed

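RNA of primary rat hepatocytes was read by TempO-Seq in 186 wells per assay. The deposited tables hold raw counts of reads per probe and well, which the authors made by aligning reads to rn6 with STAR 2.5.3a and counting with the TempO-SeqR package. No values were normalized or pooled before deposit. Here, counts of the probes of a gene were added, symbols were read without regard to case, and CPM used the total of all probes of a well. Genes averaging 10 or more counts were kept (10191 in the WT and 1760 in the ST assay). Depth, 2289425 to 8975207 counts in WT wells and 558190 to 2210264 in ST wells, limits low genes such as Igf1. edgeR 4.0.16 (glmQLFit and glmQLFTest, TMM) in R 4.3.3 was fitted over all wells with group and batch as terms, with limma 3.58.1. Each comparison was adjusted by Benjamini-Hochberg over all genes tested, SE is the absolute L2FC over the square root of F, and an L2FC per batch comes from a fit of that batch. Wells of a batch come from 1 rat, so 3 wells are technical and the 2 batches biological replicates. The test was tried on simulated counts for WY14643 8 µM against vehicle: of 200 genes changed 2-fold among 10191, 186 were called, all 200 had the right sign, and 8 others were called. In the data 56.2% of genes were called in this comparison. The simulation therefore does not show how the test does where most genes change. The balance of Fgf21 and Gdf15 was compared within batches, with 1 CPM added to each; its pairs were chosen with earlier results known, so no p is given.

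The genes and lists were chosen with earlier results of these data known. Genes named besides the 9 are, per list, up to 3 called genes with the largest absolute L2FC and the same sign in both batches in WY14643 8 µM, acetaminophen 10000 µM, diclofenac 400 µM and doxorubicin 2 µM, and the 3 (5 for Fgf21 and Gdf15) with the highest Pearson r of batch-centred mean log2(CPM + 1). Alternatives were DESeq2 1.42.0, RLE size factors, total counts, no filter on low counts, counts added per rat, no batch term, each batch alone, vehicle of the same plate in batch 2, each replicate left out, an absolute L2FC of at least 1, the ST assay, and 0.5 or 5 CPM added for the balance. Replicate numbers were given in accession order and pair nothing; batch, the block, stands for the rat together with its own culture, libraries and sequencing. Igf1 had too few counts for a test in the ST assay. Python 3.11.15, numpy 2.4.6, pandas 2.3.3 and matplotlib 3.10.9 were used. A result that the rule for named genes would also give is not reported here.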

Additional observations from a re-analysis of the deposited data

Results flagged for a closer look

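For 6 of the 7 genes tested by the WT assay, the effect of some treatments differed between the 2 batches by an interaction test (edgeR quasi-likelihood, BH-adjusted over all genes). This was so in 6 treatments for Gdf15, 5 for Fgf21, 3 for Fetub, 1 for Igf1, 5 for Igfbp1 and 7 for Lect2, and in none for Angptl6, or 27 of 196 in all, where 2.44% of all genes and treatments were called. Gdf15 rose more in batch 2 than in batch 1 with diclofenac at 400 µM (2.35 in batch 2), indomethacin at 300 µM (1.60 against 0.65), ketoconazole at 15 µM (1.31 against 0.13), ranitidine at 4000 µM (0.84 in batch 1) and valproic acid at 10000 µM (1.21 against 0.49), and isoniazid at 10000 µM had 0.34 against -0.51. The vehicle wells of batch 1 had 94.5 to 107 CPM of Gdf15 and those of batch 2 had 52.6 to 74.9 CPM. The smallest adjusted p was 1.27e-11, for Lect2 in indomethacin at 300 µM (1.14 in batch 1 and -0.35 in batch 2). Each batch was 1 rat, with its own culture, library construction and sequencing run, and these cannot be told apart. In batch 1, acetaminophen, chloramphenicol, indomethacin, ketoconazole and sulfasalazine stood on another plate than vehicle, which batch 2 had on both. For these chemicals, plate cannot be told apart from batch either.

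Single wells stood apart from the others of their group in 11 of 240 groups, by the gap to the next well over the range of the group. At the 0.05 level of this rule a similar share would be marked by chance. For Ahsg these were the lowest well of chloramphenicol at 18 µM (13796 CPM), the highest of sulfasalazine at 4 µM (17840 CPM) and the lowest of WY14643 at 8 µM (1696 CPM). For Angptl6 they were the highest wells of caffeine at 10000 µM (3.54 CPM), diclofenac at 400 µM (4.64 CPM) and naproxen at 2000 µM (6.72 CPM). For Fetub they were the lowest wells of caffeine at 400 µM (2550 CPM) and WY14643 at 8 µM (1036 CPM) and the highest of chloramphenicol at 18 µM (3288 CPM). The others were the highest well of Fgf21 in indomethacin at 300 µM (48.8 CPM) and the lowest of Igfbp1 in doxorubicin at 2 µM (340 CPM).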

How the results depend on the processing

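Of the 83 calls against vehicle, all 83 kept their sign and their call with DESeq2 and with RLE size factors, 80 with total counts, 79 without a filter on low counts, 63 with counts added per rat, 68 in batch 1 alone (2 reversed), 75 in batch 2 alone (3 reversed), 71 in batch 2 with vehicle of the same plate (3 reversed) and 77 to 81 without one of replicates 1 to 6. Without the replicate block (the batch term) 75 comparisons were called, all among the 83, with 30 higher and 45 lower. The number called ranged from 78 to 83 with one replicate left out (32 to 38 higher, 45 to 49 lower), against 2 to 3 of 7 for medium alone and 25 to 28 of 35 for the direct contrasts. With total counts the median L2FC of all genes was -0.43 in acetaminophen 10000 µM, -0.29 in WY14643 8 µM and 0.27 in valproic acid 10000 µM.

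Some single results of the WT assay reversed. In batch 2, and there against vehicle of the same plate, Igfbp1 in diclofenac 400 µM had an L2FC of -0.15 and -0.33, Lect2 in indomethacin 300 µM -0.35 and -0.44, and Fgf21 in sulfasalazine 100 µM -0.094 and -0.27. Fgf21 in valproic acid 10000 µM was -0.10 and Angptl6 in WY14643 200 µM was 0.091 in batch 1. The cause was not tested. With an absolute L2FC of at least 1, the 83 calls became 46 (20 higher, 26 lower), the 18 of Ahsg 9, the 3 of medium alone 0 and the 28 of the direct contrasts 17. Medium alone also gave 0 with counts added per rat and 0 in batch 1 alone, and 4 in the ST assay against 2 of the same genes in the WT assay. The Fgf21 to Gdf15 differences (acetaminophen, diclofenac, doxorubicin) were 9.58, 1.29 and 4.25 for batch 1 and 8.41, 0.69 and 2.80 for batch 2. They were 9.72, 0.99 and 3.55 with 0.5 CPM added, 6.97, 0.95 and 3.34 with 5 CPM and 10.16, 1.12 and 3.81 in the ST assay. Without one replicate they ranged from 8.84 to 9.21, 0.88 to 1.06 and 3.48 to 3.57. The interaction count was 27 with DESeq2 and 25 with RLE. With 2 rats, P-values cover the spread of wells, and the depth leaves Igf1 and the lowest Fgf21 values at a few reads per well.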

Other observations

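A list of other factors secreted in the liver, chosen with earlier results known, was followed in the same wells. Of 12 tested genes, 5 were higher and 3 lower in WY14643 at 8 µM, where 56.2% of all genes were called, with the activin subunit gene Inhbc at 3.15 ± 0.22, Tsku at 1.37 ± 0.19 and the retinol carrier Rbp4 at 1.19 ± 0.15 (L2FC ± SE). In acetaminophen at 10000 µM, 3 were higher and 6 lower (78.9% of all genes called): Hamp, which encodes the iron hormone hepcidin, rose by 3.54 ± 0.27, Tsku had -3.15 ± 0.25, and Inhbc was at least 11.9-fold lower. In diclofenac none was higher and 9 were lower (71.7% of all genes called), with the selenium carrier Selenop at -3.50 ± 0.22. In doxorubicin at 2 µM, 2 were higher and 5 lower (19.4% of all genes called); Gdf2, which encodes the vascular ligand BMP9, was at least 11.1-fold lower, and the activin inhibitor Fst rose by 1.81 ± 0.20. The Kupffer cell and leukocyte genes there had a sum of 4.51 to 8.92 CPM against 29.7 to 49.9 in vehicle, with 4 of 5 tested genes lower. The stellate genes had 2.16 to 13.9 against 20.2 to 130 CPM and the endothelial genes 0.15 to 0.97 against 2.07 to 4.92 CPM. The part of these cells in the results for Gdf2 and Fst was not tested.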
